A study of Mus musculus with 4 samples.

Results

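Small leucine-rich proteoglycans (SLRPs) are secreted proteins of the extracellular matrix. The set described here holds 10 of their genes, Dcn, Bgn, Lum, Fmod, Ogn, Kera, Prelp, Aspn, Epyc and Omd, taken by name out of 32158 genes of the files that could be matched to the GENCODE annotation. All 10 were found in the files, and their levels are given in 5 classes of cells from the presumptive knee of mouse embryos.

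Each SLRP core protein is a curved band of leucine-rich repeats that can bind fibrillar collagen, and most members carry chondroitin, dermatan or keratan sulfate chains. The family is known in tendon, cartilage, bone and skin for setting the diameter and spacing of collagen fibrils, and several members also bind growth factors. By protein sequence and gene structure the members fall into class I (decorin, biglycan, asporin), class II (lumican, fibromodulin, keratocan, PRELP, osteomodulin) and class III (epiphycan, osteoglycin), and the results follow that order.

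The study measured single-cell gene expression in hindlimb tissue dissected around the future knee joint. There is 1 droplet library for each of 4 conditions. The controls are labelled WT (wild type) and were taken at E13.5 or E14.5 (embryonic days), and the E14.5 control is described as carrying no Cre. The other E14.5 libraries are labelled Prx1Cre;Glut1f/f;Glut3f/+ (below, the library labelled Glut3f/+), with both Glut1 alleles and 1 Glut3 allele floxed, and DCKO, with both alleles of both genes floxed. Prx1Cre is active in limb mesenchyme and its descendants and is not directed at blood, vessel or muscle cells. Glut1 (Slc2a1) and Glut3 (Slc2a3) are glucose transporters, and the genotype comparisons ask what changes when the limb mesenchyme is to lose them. The exact number of embryos pooled in each library is not stated. Where 4 values follow each other without names, they stand for the E13.5 control, the E14.5 control, the library labelled Glut3f/+ and the library labelled DCKO, in that order.

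The libraries held 12769, 9707, 11690 and 11602 barcodes with 100344565, 84188147, 97110697 and 91574038 UMIs, a UMI (unique molecular identifier) being 1 counted transcript. After a filter on genes detected and mitochondrial UMIs, 12446, 9305, 11264 and 11305 cells remained, with a median of 6176, 7279, 6757 and 6379 UMIs. Pairs of libraries shared 24 to 37 barcodes over the 6 pairs. With 1 library for each condition there are no replicates, so no difference below could be set against a spread between replicates, and every interval covers counting error only.

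Slc2a1 did not follow the labels, while Slc2a3 ran the labelled way in part of the library labelled DCKO. Slc2a1 stood at 102, 85.9, 502 and 532 CPM (the UMIs of a gene over all UMIs of the pooled cells, scaled to a fixed total) in chondrocyte-like cells. Its log2 ratio to the E14.5 control over the 5 classes ran from 1.92 to 2.62 in the library labelled Glut3f/+ and from 2.15 to 3.24 in the library labelled DCKO. Both libraries labelled as deleted were thus higher in every class. In erythroid-like cells, outside the reach of the Cre, Slc2a1 was at 49.97, 34.5, 176 and 234 CPM. These cells also carried chondrocyte RNA, with Col2a1 at 826 to 2763 CPM, and its part in the Slc2a1 values was not tested. Slc2a3 was low everywhere, at 3.08, 2.53, 3.66 and 1.59 CPM in chondrocyte-like cells and 6.46, 6.30, 4.54 and 3.11 CPM in fibroblast-like cells. In fibroblast-like cells of the library labelled DCKO its log2 ratio to the E14.5 control was -1.02 (95% interval -1.74 to -0.33). In chondrocyte-like cells it was -0.67 (-1.09 to -0.26), and interzone-like cells went from 16 UMIs at 4.26 CPM to 0 UMIs with an upper 95% limit of 3.35 CPM, in a class that held fewer cells. Tendon-like cells went the other way, from 5.57 to 6.88 CPM on 10 UMIs in each library. A 3′ count reads the end of a transcript, which can lie outside a deleted segment, so these values check neither deletion, and every genotype direction below is that of a library as labelled.

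The libraries also differed in sex. Xist, expressed from the inactive X chromosome of females, was detected in 64.7%, 0.172%, 92.2% and 91.2% of cells, and at least 1 of the Y-linked Ddx3y, Eif2s3y, Kdm5d and Uty in 18.4%, 65.9%, 0.0355% and 0.0265%. The E14.5 control thus held cells with Y-linked UMIs, both libraries labelled with Prx1Cre held cells with Xist, and the E13.5 control held both kinds. Sex and genotype cannot be told apart at E14.5, and the age comparison sets a mixed library against one with hardly any Xist.

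Cells were placed in a class by scores over marker lists that hold no SLRP gene, so a class stands for the best of 5 scores and not for a sorted cell type. The fibroblast-like class held 2611, 1241, 2014 and 1540 cells, the tendon-like class 421, 257, 277 and 214, and the osteogenic-like class 796, 107, 168 and 199. The interzone-like class held 1754, 652, 679 and 232 cells and the chondrocyte-like class 1449, 4569, 4757 and 6114. The interzone-like class was thus 14.1%, 7.01%, 6.03% and 2.05% of the kept cells. Together the 5 classes took 56.5%, 73.4%, 70.1% and 73.4% of the kept cells. Class borders were soft: 17.0% of fibroblast-like, 13.4% of tendon-like, 12.3% of osteogenic-like, 16.1% of interzone-like and 5.61% of chondrocyte-like cells lay within 0.05 of a score limit. Within the interzone-like class these were 215 of 1754, 117 of 652, 137 of 679 and 65 of 232 cells, so the share was highest in the library labelled DCKO.

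Cells were placed by marker scores, so the level of a marker in its own class describes that class and does not test its name. Scx was at 709 to 841 CPM in tendon-like cells, Col2a1 at 4438 to 6826 CPM in chondrocyte-like cells and Gdf5 at 209 to 483 CPM in interzone-like cells. Dpt, a marker of later fibroblasts, was at 0.223 to 2.59 CPM in fibroblast-like cells, and Bglap, of mature osteoblasts, at 2.07 CPM or less in osteogenic-like cells. The osteogenic-like class was not the same mix in each library. Its 6 markers summed to 763, 754, 3169 and 863 CPM, with Ibsp, a gene of mineralising cells, at 18.8, 7.42, 2290 and 117 CPM. The 5 interzone markers summed to 4055, 4480, 3801 and 3240 CPM in interzone-like cells, most of it Sfrp2. The part of these marker differences in the results on those classes was not tested.

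Summed over the 10 genes, the family was most abundant in osteogenic-like cells at E14.5, with 1559, 1649 and 1233 CPM in the E14.5 control, the library labelled Glut3f/+ and the library labelled DCKO. Tendon-like cells of the last had 1228 CPM, so that order is not a clear one. In the E13.5 control it was most abundant in fibroblast-like cells, at 623 CPM, while osteogenic-like cells had 334 CPM. Of the 5 classes, interzone-like cells had the lowest sum in every library, at 165, 381, 310 and 303 CPM, and Bgn alone made up 63.5%, 74.7%, 58.7% and 62.3% of it. Which gene led depended on the class: Epyc and Lum led in chondrocyte-like cells, while Dcn led in fibroblast-like cells except in the library labelled DCKO, where Lum did.

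**Figure D1:**
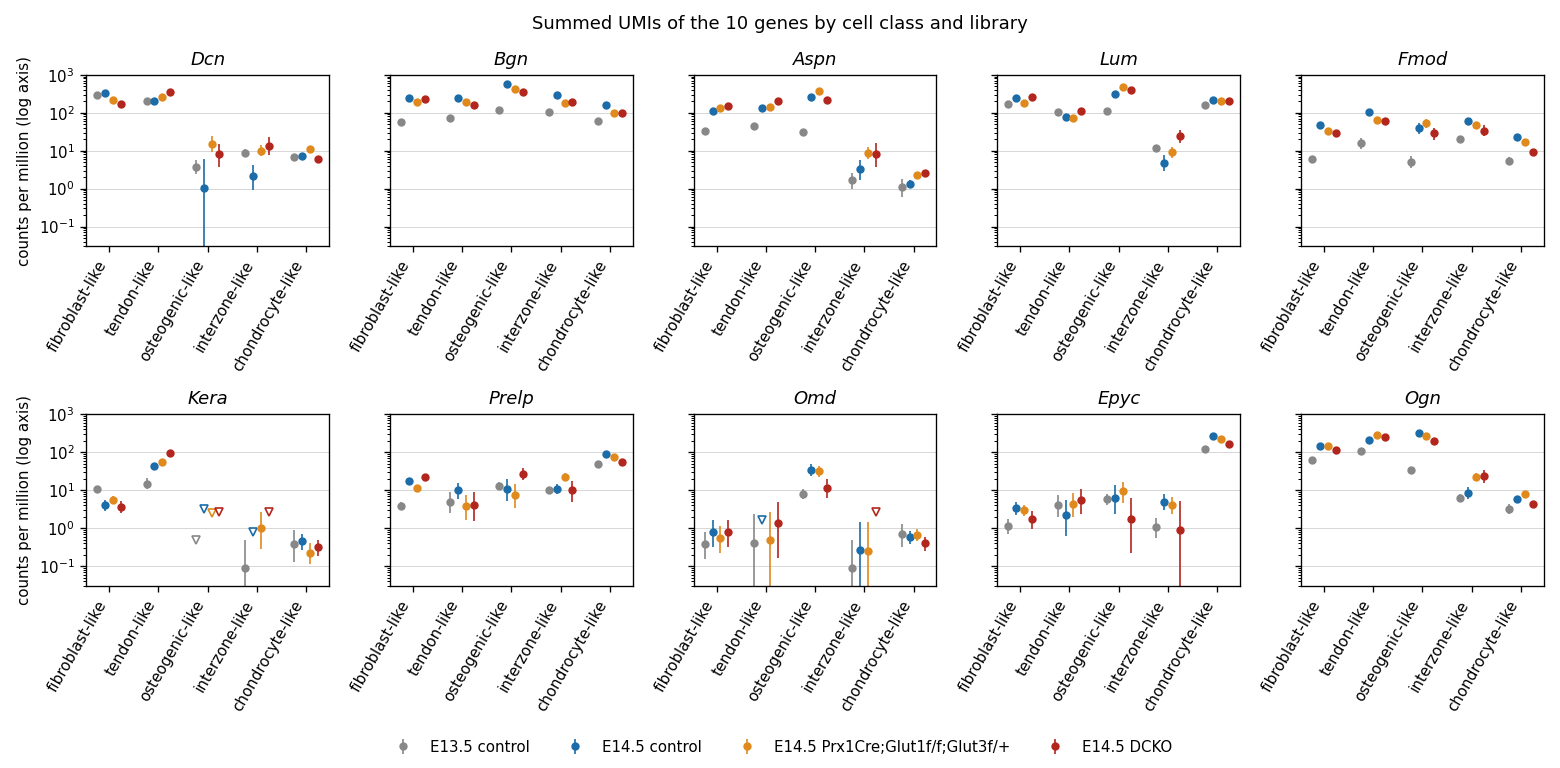
Level of each of the 10 genes in 5 cell classes of the 4 libraries, as CPM of summed UMIs on a log axis; points are libraries, bars the exact Poisson 95% intervals, and open triangles the CPM of 3 counts where no UMI was found. Epyc stood at 121 to 275 CPM in chondrocyte-like cells and under 10 CPM in the other 4 classes, while Bgn was above 50 CPM in all 5.

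Dcn (ENSMUSG00000019929) encodes decorin, a class I member with a single chondroitin or dermatan sulfate chain that binds collagen I. In fibroblast-like cells it was at 286, 323, 217 and 169 CPM, with 95% intervals of 278 to 294, 311 to 335, 209 to 225 and 160 to 177. In tendon-like cells it was at 202, 208, 255 and 343 CPM. The order of these classes turned: fibroblast-like cells had more in both controls and tendon-like cells more in both libraries labelled with Prx1Cre. Osteogenic-like, interzone-like and chondrocyte-like cells had 1.06 to 15.4 CPM. Dcn was carried by a minority of cells at a high level, since 33.4%, 24.6%, 31.1% and 23.6% of fibroblast-like cells had a UMI and those cells averaged 5.89, 9.40, 4.27 and 4.02 UMIs of it.

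Bgn (ENSMUSG00000031375) encodes biglycan, which usually carries a pair of such chains and is the X-linked member. Among the 5 classes it was highest in osteogenic-like cells of every library, at 121, 556, 420 and 342 CPM (95% intervals 113 to 130, 509 to 605, 384 to 459 and 309 to 378). Fibroblast-like cells had 55.5, 241, 191 and 228 CPM, and chondrocyte-like cells 61.8, 157, 98.1 and 97.8 CPM. In each of the 5 classes the E13.5 control was the lowest library and the E14.5 control the highest. Among fibroblast-like cells 25.8%, 60.3%, 49.6% and 53.6% had a UMI, with 1.48 to 2.87 UMIs in those cells.

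Because Bgn is X-linked, the E13.5 control was also divided into cells with Xist and no Y-linked UMI and cells with the reverse. In fibroblast-like cells the first group had 59.5 CPM and the second 42.7 CPM, a log2 ratio of 0.48 (95% interval 0.21 to 0.75), and in interzone-like cells the ratio was 0.32 (0.05 to 0.61). In tendon-like, osteogenic-like and chondrocyte-like cells the ratios were -0.06, -0.03 and 0.08, with intervals that include 0. Ratios away from 0 were not limited to the X-linked gene: Dcn was lower in the Xist group of interzone-like cells (-2.38), and higher in that of tendon-like cells (1.18), both with intervals that exclude 0. So were Kera in fibroblast-like (0.65) and tendon-like cells (2.90), Aspn in tendon-like (1.07) and Epyc in chondrocyte-like cells (0.51) higher. Lum in interzone-like (-1.17) and Omd in osteogenic-like cells (-1.25) were lower. These intervals exclude 0 too, some on few UMIs. The part of sex in the age and genotype ratios of these genes below was not tested.

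Aspn (ENSMUSG00000021388) encodes asporin, a class I member with an aspartate-rich end in place of the usual chain attachment. In osteogenic-like cells it was at 31.5, 266, 365 and 223 CPM (95% intervals 27.3 to 36.2, 234 to 301, 331 to 402 and 196 to 252). Tendon-like cells had 45.1, 136, 138 and 198 CPM and fibroblast-like cells 32.0, 109, 130 and 150 CPM. These 3 classes shared a low value at E13.5, and their ranges over libraries overlapped. Interzone-like cells had 1.67 to 8.76 CPM and chondrocyte-like cells 1.08 to 2.59 CPM, both below the lowest value of the first 3 classes.

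Lum (ENSMUSG00000036446) encodes lumican, a class II keratan sulfate proteoglycan. It was abundant on both sides of the contrast between cartilage and soft tissue, at 164, 216, 199 and 204 CPM in chondrocyte-like cells and 167, 242, 181 and 254 CPM in fibroblast-like cells. Osteogenic-like cells had 111, 321, 471 and 391 CPM, and tendon-like cells 103, 77.9, 74.7 and 113 CPM. Interzone-like cells stood apart with 11.8, 4.79, 9.27 and 24.5 CPM. That range did not overlap with the tendon-like range above it, and the tendon-like range did not overlap with the chondrocyte-like range.

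Fmod (ENSMUSG00000041559) encodes fibromodulin, the closest relative of lumican in collagen binding. Tendon-like cells had 15.5, 107, 65.0 and 59.2 CPM (95% intervals 10.9 to 21.3, 92.8 to 124, 54.5 to 77.0 and 47.3 to 73.1), and interzone-like cells 20.4, 61.5, 48.7 and 33.6 CPM. Chondrocyte-like cells had 5.40, 23.3, 16.5 and 9.16 CPM. Fmod was lowest in the E13.5 control in all 5 classes, and highest in the E14.5 control in all but the osteogenic-like class, where the library labelled Glut3f/+ had 52.9 CPM against 39.2 CPM.

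Kera (ENSMUSG00000019932) encodes keratocan, known as a keratan sulfate proteoglycan of the cornea and also found in tendon. Its CPM was highest in tendon-like cells, at 15.04, 42.9, 56.9 and 94.2 CPM (95% intervals 10.5 to 20.8, 33.8 to 53.6, 47.1 to 68.1 and 79.1 to 111). Fibroblast-like cells had 10.6, 4.05, 5.60 and 3.69 CPM, and chondrocyte-like cells 0.448 CPM or less. At E13.5 the intervals of these classes overlapped (9.13 to 12.2 in fibroblast-like cells), and 65.1% of the Kera UMIs lay in fibroblast-like and 12.3% in tendon-like cells. No UMI was found in osteogenic-like cells of any library, where 3 counts would be 0.478, 3.18, 2.56 and 2.67 CPM and the upper 95% limits of the share of cells with a UMI were 0.462%, 3.39%, 2.17% and 1.84%. These limits cover detection only, since a cell without a UMI may still express the gene.

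Prelp (ENSMUSG00000041577) encodes a class II member with a basic, proline- and arginine-rich end that binds heparan sulfate. Chondrocyte-like cells had 48.3, 89.6, 73.3 and 56.4 CPM (95% intervals 44.6 to 52.3, 86.8 to 92.4, 70.9 to 75.7 and 54.4 to 58.3). The other 4 classes had 3.79 to 27.6 CPM, below the chondrocyte-like range in every library.

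Omd (ENSMUSG00000048368) encodes osteomodulin, a class II member first described in bone. It was the scarcest of the 10, with 101, 86, 94 and 67 UMIs in all kept cells. Osteogenic-like cells had 7.96, 35.0, 32.4 and 11.6 CPM from 50, 33, 38 and 13 UMIs, with 95% intervals of 5.91 to 10.5, 24.1 to 49.1, 22.9 to 44.5 and 6.16 to 19.8. The other 4 classes had 1.38 CPM or less. Of all Omd UMIs 49.5%, 38.4%, 40.4% and 19.4% lay in osteogenic-like cells, and in the library labelled DCKO 34.3% lay in chondrocyte-like and 29.9% in unassigned cells.

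Epyc (ENSMUSG00000019936) encodes epiphycan, a class III member named for the epiphysis. It was confined in these libraries to chondrocyte-like cells more closely than any other member, with 121, 275, 231 and 167 CPM there (95% intervals 115 to 127, 270 to 280, 227 to 235 and 164 to 170). At E14.5 the chondrocyte-like class held 97.7%, 96.0% and 97.3% of all Epyc UMIs of the kept cells, and at E13.5 80.0%, with 14.7% in cells of no class. Only 23.4%, 43.2%, 46.6% and 39.7% of chondrocyte-like cells had a UMI, and those cells averaged 4.63, 6.21, 5.04 and 3.97 UMIs.

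Ogn (ENSMUSG00000021390) encodes osteoglycin, also called mimecan, the class III member known from bone and connective tissue. Tendon-like cells had 111, 211, 283 and 246 CPM, osteogenic-like cells 35.0, 323, 276 and 199 CPM and fibroblast-like cells 61.4, 143, 144 and 117 CPM. The order of the first 2 of these classes depended on the library, since the osteogenic-like value was the higher only in the E14.5 control. Interzone-like cells had 6.32, 8.52, 22.7 and 23.6 CPM and chondrocyte-like cells 3.24, 5.92, 7.79 and 4.41 CPM. Skeletal muscle-like cells, outside the 5 classes, had 19.7, 45.1, 42.2 and 24.9 CPM.

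Droplets also hold free RNA, which gives UMIs in cells that do not express a gene, so each share of cells with a UMI was set beside erythroid-like and macrophage-like cells of the same library at an equal depth of 2000 UMIs. Their shares rested on only 169, 123, 84 and 49 erythroid-like and 15, 33, 49 and 31 macrophage-like cells. Above or not above compares the shares themselves, without their counting error. Erythroid-like cells had a median of 8019, 8911, 7761 and 7583 UMIs before thinning and carried Col2a1 at 826 to 2763 CPM, so chondrocyte RNA was among their background. Free RNA and doublets (droplets with more than 1 cell) were not told apart, and background here means UMIs from either. Some were concentrated: in the E14.5 control 29 Dcn UMIs lay in 2 and 87 Epyc UMIs in 20 of 127 erythroid-like cells. At 2000 UMIs, Bgn and Fmod were above both kinds of cell in every class and library. Dcn, Ogn and Aspn were above both in fibroblast-like and tendon-like cells of all 4 libraries, and Ogn, Aspn, Lum and Omd in osteogenic-like cells of all 4. Outside these classes the low values were often no more than background. Lum in interzone-like cells, Ogn in chondrocyte-like cells, Prelp and Epyc in fibroblast-like cells, Epyc in interzone-like cells and Aspn in interzone-like and chondrocyte-like cells exceeded both in 0 of 4 libraries. Prelp in fibroblast-like cells of the E14.5 control, for example, had an expected share of 3.58% against 5.15% in erythroid-like cells. Endothelial-like cells are a separate case, since Bgn was at 137, 178, 181 and 153 CPM there against 31.9, 77.1, 101 and 45.0 CPM in erythroid-like cells.

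The first comparison set fibroblast-like against chondrocyte-like cells within each library, where library effects are shared. A gene was called apart at a ratio of at least 2 with at least 50 UMIs over both groups. Of the 10 members 9 could be called in all 4 libraries and Omd could not. Dcn, Ogn, Kera and Aspn, 4 members, were at least 2-fold higher in fibroblast-like cells in all 4 libraries, beside 7.98% of 11931 genes. Prelp and Epyc, 2 members, were at least 2-fold lower in all 4, beside 2.94% of genes. The differences were large: the log2 ratio of Dcn was 5.40, 5.52, 4.30 and 4.78, that of Aspn 4.89, 6.34, 5.83 and 5.85, and that of Epyc -6.69, -6.35, -6.26 and -6.59. Kera was no longer called under 6 of 11 alternative processings, while the other 5 genes remained called under all 11. Its log2 ratio was 4.78, 3.18, 4.62 and 3.57, and in the library labelled DCKO it had 32 and 18 UMIs in the 2 classes, exactly the minimum for a call. Prelp gave -3.67, -2.35, -2.70 and -1.33, a gap that was widest in the E13.5 control and narrowest in the library labelled DCKO. In fibroblast-like cells Prelp stood above background in 0 of 4 libraries, and the part of the background in these gaps was not tested.

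The other callable genes were not called in all 4 libraries. Lum differed by 0.02, 0.16, -0.13 and 0.32 on the log2 scale, with intervals no wider than 0.2. Bgn went from -0.16 in the E13.5 control to 1.22 in the library labelled DCKO, the only library in which it was called, and with TMM factors, 1 of 4 alternatives that lost this call, the ratio was 0.84. Fmod was called higher in fibroblast-like cells of the 3 E14.5 libraries, at 1.07, 1.01 and 1.69. The first 2 fell below 2-fold under 6 alternatives each, with TMM factors at 0.82 and 0.72. With cells chosen by a few defining genes the ratio was -0.28 in the E14.5 control and -0.07 in the library labelled Glut3f/+. With that choice it was 0.79 in the library labelled DCKO, without a change of sign.

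The second comparison, E14.5 over E13.5 control, asks how the tissue changes over 1 day of joint formation. In fibroblast-like cells 6 of the 9 members that could be called were at least 2-fold higher (Bgn, Fmod, Ogn, Prelp, Aspn and Epyc), beside 4.23% of 12135 genes, and 1, Kera, was lower, beside 2.33%. In tendon-like cells 4 of 7 were higher (Bgn, Fmod, Kera and Aspn), beside 3.81% of genes, and 0 lower, beside 1.57%. In osteogenic-like cells 6 of 7 were higher (Bgn, Lum, Fmod, Ogn, Aspn and Omd), beside 2.68%, and 0 lower, beside 11.3%. Bgn, Fmod and Aspn were called higher in all 3 of these classes.

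In interzone-like cells 2 of 6 were higher (Bgn and Fmod), beside 3.14% of genes, and 2 lower (Dcn and Lum), beside 3.57%. In chondrocyte-like cells 3 of 8 were higher (Bgn, Fmod and Epyc), beside 3.88%, and 0 lower, beside 3.81%. Counted as pairs of a gene and a class, 21 of 37 pairs were higher, beside 3.59% of all pairs, and 3 were lower, beside 4.4%. The members that could be called are those with enough UMIs in either library, so these counts do not speak for all 10. The median log2 ratio of the callable members was 1.53 in fibroblast-like, 1.51 in tendon-like, 2.19 in osteogenic-like, 0.27 in interzone-like and 0.88 in chondrocyte-like cells. The medians of all callable genes in the same classes were -0.08, -0.01, -0.25, -0.04 and -0.10.

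**Figure D2:**
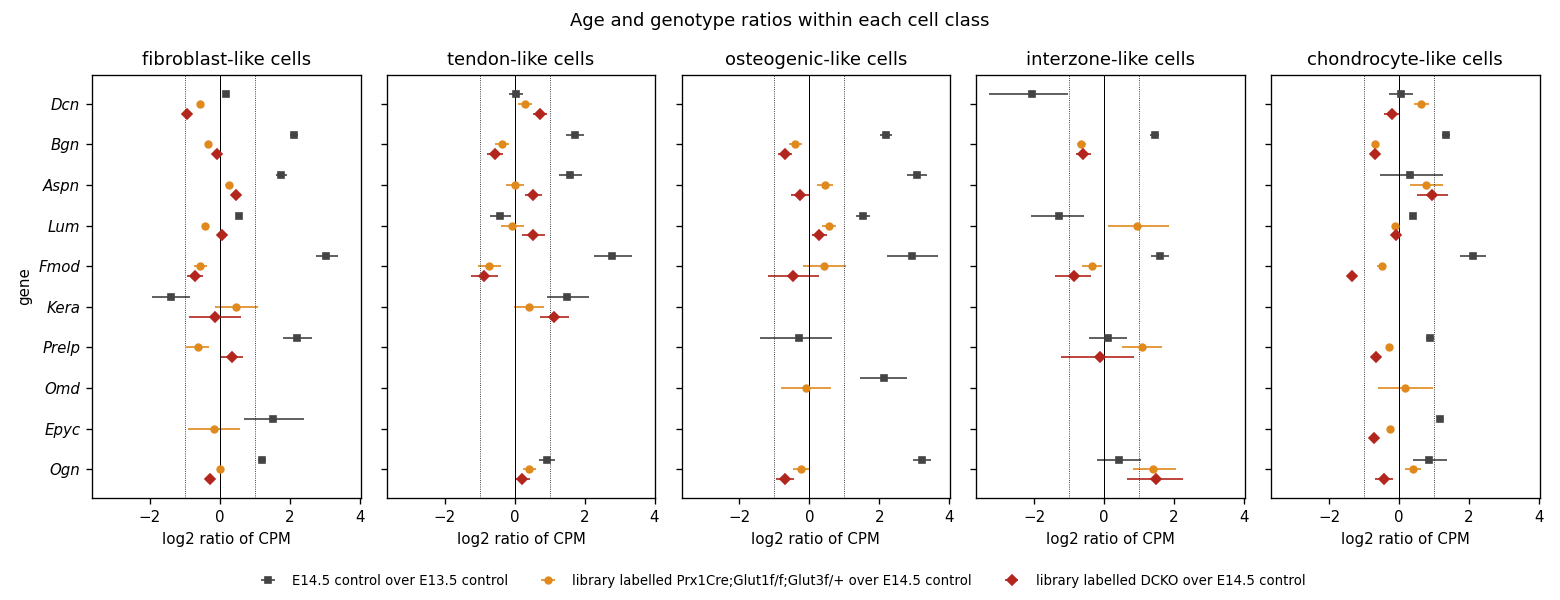
Log2 ratios of CPM within each class for E14.5 over E13.5 control (squares) and for the libraries labelled Glut3f/+ (circles) and DCKO (diamonds) over the E14.5 control, with exact 95% intervals, for genes with at least 50 UMIs in a pair of groups; dotted lines mark 2-fold. Bgn and Fmod rose with age in all 5 classes, while most genotype ratios lie within 2-fold.

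Bgn and Fmod rose in every class, Bgn under all 11 alternatives. The log2 ratio of Bgn was 2.12 (95% interval 2.01 to 2.23) in fibroblast-like, 1.73 in tendon-like, 2.19 in osteogenic-like, 1.44 in interzone-like and 1.34 in chondrocyte-like cells. That of Fmod was 3.05 (2.74 to 3.37), 2.80, 2.95, 1.60 and 2.11 in the same classes. Bgn is X-linked and the older library is the one with hardly any Xist. The E13.5 cells with Y-linked UMIs and no Xist had Bgn at 42.7, 82.8, 125, 86.7 and 59.9 CPM in the same classes, beside 241, 243, 556, 285 and 157 CPM in the E14.5 control. The background of both genes was higher at E14.5 too, as erythroid-like cells went from 31.9 to 77.1 CPM of Bgn and from 4.37 to 16.1 CPM of Fmod, and its part in the ratios was not tested.

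Ogn and Aspn rose most in osteogenic-like cells, by 3.21 (95% interval 2.95 to 3.46) and 3.08 (2.80 to 3.35). In fibroblast-like cells they rose by 1.22 and 1.76. In tendon-like cells Aspn rose by 1.60, and Ogn, at 0.92, did not reach 2-fold. Omd rose in osteogenic-like cells by 2.14 (1.46 to 2.80), on few UMIs, from a library in which cells with Y-linked UMIs had 14.05 CPM and cells with Xist 5.89 CPM (18 and 24 UMIs), beside 35.0 CPM in the E14.5 control. The osteogenic-like class shrank from 796 to 107 cells between these libraries. Its 6 markers summed to 763 and 754 CPM, with Alpl going from 84.5 to 269, Runx2 from 369 to 241 and Ibsp from 18.8 to 7.42 CPM, and the part of these shifts was not tested.

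In chondrocyte-like cells Epyc was called higher, at 1.18 (95% interval 1.11 to 1.26). The background of Epyc was higher at E14.5 too, as erythroid-like cells went from 8.12 to 69.9 CPM. At 2000 UMIs their share with Epyc went from 0.739% to 6.33%, below the chondrocyte-like share in both libraries. The marker Col2a1 went from 4438 to 6826 CPM in chondrocyte-like cells. The part of the background and of the marker level in the Epyc call was not tested. Prelp, at 0.89 (0.77 to 1.01), and Lum, at 0.39, did not reach 2-fold in chondrocyte-like cells. Neither did Dcn in fibroblast-like cells, at 0.18, or in tendon-like cells, at 0.04. Kera rose in tendon-like cells by 1.51 (0.92 to 2.12), but this call was lost when cells were chosen by defining genes, thinned to 2000 UMIs, or stripped of those with a high second score.

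Further age calls depended on the processing. Epyc in fibroblast-like cells was lost with the stricter gate, the gate on defining genes and thinned cells. It was also lost without each list's most abundant marker and without cells of a high second score. Fmod and Omd in osteogenic-like cells were lost under 4 and 3 alternatives, and Ogn in fibroblast-like cells with a gate on defining genes. Without cells of a high second score, Fmod in tendon-like and interzone-like, Aspn in tendon-like and Lum in osteogenic-like cells were lost too. Other pairs were called higher only under alternatives: Ogn in tendon-like and Prelp in chondrocyte-like cells under 4 each, and Ogn and Aspn in chondrocyte-like cells under 5 and 3.

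Several age calls were on genes that did not stand above the background in the class. In the higher library of each pair, 19 of the 21 pairs called higher had a share of cells above both erythroid-like and macrophage-like cells at 2000 UMIs, and Prelp and Epyc in fibroblast-like cells did not. Of the 3 pairs called lower, Kera in fibroblast-like cells did, with 1.49% against 0.120% and 0%, and Dcn and Lum in interzone-like cells did not. The 0.120% came from 1 UMI, and the 0% from 15 macrophage-like cells. Erythroid-like cells went from 28.7 to 23.3 CPM of Dcn and from 39.3 to 92.4 CPM of Lum between the same libraries. They went from 9.37 to 36.2 CPM of Prelp and from 8.12 to 69.9 CPM of Epyc. The part of the background in these calls was not tested. The Epyc ratio in fibroblast-like cells turned from 1.53 to -0.35 when cells were thinned. The Dcn ratio in interzone-like cells turned from -2.06 to 0.48 when the most abundant marker of each list was left out. That of Lum went from -1.31 to 0.91 with cells chosen by defining genes and to 0.0107 without cells of a high second score. The Kera ratio in fibroblast-like cells, -1.39 (-1.94 to -0.87), was called under all alternatives but the choice of cells by defining genes.

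The third comparison set each library labelled with Prx1Cre against the E14.5 control. Both share that control, so their values are not independent of each other. In the library labelled Glut3f/+, 2 of 36 callable pairs were at least 2-fold higher (Ogn and Prelp in interzone-like cells), beside 0.792% of all pairs, and 0 lower, beside 0.982%. In the library labelled DCKO, 2 of 32 pairs were higher (Kera in tendon-like and Ogn in interzone-like cells), beside 1.02%, and 1 was lower (Fmod in chondrocyte-like cells), beside 2.54%. Most SLRP values therefore lay within 2-fold of the E14.5 control.

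Fmod in chondrocyte-like cells gave the only genotype call that remained under all 11 alternatives, in the library labelled DCKO. It went from 23.3 CPM in the E14.5 control to 9.16 CPM in the library labelled DCKO, a log2 ratio of -1.35 (95% interval -1.50 to -1.19), and to 16.5 CPM in the library labelled Glut3f/+, -0.49 (-0.63 to -0.36). In the other classes the Fmod ratio in the library labelled DCKO was -0.72 in fibroblast-like, -0.86 in tendon-like, -0.87 in interzone-like and -0.46 in osteogenic-like cells, the last with an interval that includes 0. The corresponding values in the library labelled Glut3f/+ were -0.55, -0.72, -0.34 and 0.43. The background of this gene was lower in the library labelled DCKO too. Erythroid-like cells had Fmod at 4.37, 16.1, 14.3 and 4.29 CPM from 7, 20, 12 and 2 UMIs, and at 2000 UMIs a share of 2.32% in the E14.5 control and 0.603% in the library labelled DCKO, beside 4.84% and 1.97% in chondrocyte-like cells. The part of the background in the call was not tested.

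Bgn was lower than in the E14.5 control in all 5 classes of both libraries, without reaching 2-fold. In chondrocyte-like cells the log2 ratio was -0.67 (95% interval -0.73 to -0.62) and -0.68 (-0.73 to -0.63) in the libraries labelled Glut3f/+ and DCKO. In fibroblast-like cells it was -0.34 and -0.08, the second with an interval that includes 0. These libraries are the ones rich in Xist, so for this X-linked gene sex and genotype cannot be told apart. When cells with a high second score were left out, Bgn in osteogenic-like cells was called lower in both libraries.

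Epyc and Prelp in chondrocyte-like cells had ratios below 0 without reaching 2-fold. Epyc gave -0.25 (95% interval -0.29 to -0.21) in the library labelled Glut3f/+ and -0.72 (-0.76 to -0.68) in the library labelled DCKO. Prelp gave -0.29 (-0.36 to -0.22) and -0.67 (-0.74 to -0.60), while Lum gave -0.12 and -0.08. The median of all callable genes in this class was -0.10 and -0.19, and the 6 chondrocyte markers summed to 13058 CPM in the E14.5 control, 12408 in the library labelled Glut3f/+ and 10814 in the library labelled DCKO. The part of the marker levels was not tested.

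The Dcn ratios had opposite signs in fibroblast-like and tendon-like cells, none was called, and the difference between the classes was not tested. In fibroblast-like cells the log2 ratio was -0.57 (95% interval -0.65 to -0.50) and -0.94 (-1.03 to -0.85), and in tendon-like cells 0.30 (0.10 to 0.49) and 0.72 (0.53 to 0.92), for the libraries labelled Glut3f/+ and DCKO. The fall in fibroblast-like cells and the rise in tendon-like cells reached 2-fold under 3 alternatives each in the library labelled DCKO, and in the library labelled Glut3f/+ the fall did under 1. The share of tendon-like cells with a Dcn UMI was 27.2% in the E14.5 control, 43.3% and 41.6%. Kera in tendon-like cells gave 0.41 (-0.02 to 0.84) and 1.14 (0.72 to 1.56), with 11.7%, 15.2% and 28.5% of cells having a UMI. In tendon-like cells of the E13.5 control Kera was at 21.3 CPM with Xist and 2.86 CPM with Y-linked UMIs (33 and 1 UMIs). Dcn was at 240 and 106 CPM there, and at 292 and 309 CPM in fibroblast-like cells. Both libraries labelled with Prx1Cre are rich in Xist, and the part of sex in these ratios was not tested. The Kera call in the library labelled DCKO was lost with a stricter gate, without cells of a high second score, and with thinned cells. The tendon markers did not move as 1 block beside it: from the E14.5 control to the library labelled DCKO Thbs4 went from 259 to 422 CPM, Mkx from 122 to 55.0 CPM and Tnmd from 209 to 226 CPM.

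The remaining genotype calls were in interzone-like cells and at low levels. Ogn went from 8.52 CPM to 22.7 and 23.6 CPM, log2 ratios of 1.41 (95% interval 0.81 to 2.04) and 1.47 (0.67 to 2.26), from 32, 88 and 26 UMIs. Prelp went from 10.9 CPM to 22.9 and 9.99 CPM, ratios of 1.07 (0.52 to 1.64) and -0.13. At 2000 UMIs the share of interzone-like cells with Ogn in the library labelled Glut3f/+ was 4.42% against 4.74% in erythroid-like cells, and with Prelp 4.09% against 4.97%, so neither stood above background there. Erythroid-like cells had Ogn at 22.5 CPM in the E14.5 control and 19.1 CPM in that library and Prelp at 36.2 and 42.9 CPM, and the part of the background in the calls was not tested. In the library labelled DCKO the Ogn share was 4.92% against 2.99%. A looser gate, a gate on defining genes, leaving out each list's most abundant marker, leaving out cells with a high second score, and thinning each removed these Ogn and Prelp calls. A stricter gate also removed the Prelp call and the Ogn call in the library labelled DCKO. The mean of single-cell CPM removed the Prelp call.

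Across the 20 values of 5 classes in 4 libraries, some members had nearly the same profile. Ogn and Aspn had a Pearson correlation of 0.98 and a Spearman correlation of 0.95 on log2 CPM plus 1. Dcn and Kera followed with 0.87 and 0.78, Prelp and Epyc with 0.77 and 0.44, and Bgn and Fmod with 0.74 and 0.72, while Ogn and Prelp were the most opposed at -0.64. These values share libraries, cells and depth and describe a pattern only. In single fibroblast-like cells, 21.7%, 42.5%, 41.1% and 47.9% of cells with Ogn also had Aspn, against 7.47%, 16.7%, 21.0% and 23.8% of the rest. The cells with Ogn were deeper, at a median of 6426, 6969, 6102 and 5470 UMIs against 5508, 5804, 5152 and 4672. In tendon-like cells 10.1%, 24.3%, 26.7% and 53.9% of cells with Dcn also had Kera, against 1.28%, 6.95%, 6.37% and 10.4% of the rest, and here too the cells with Dcn were deeper (medians of 7723 and 4361 UMIs in the library labelled DCKO).

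Dcn and Lum, neighbours in the genome, were found together in single cells to a degree that varied. In fibroblast-like cells 60.7%, 62.6%, 46.6% and 47.0% of cells with Dcn also had Lum, against 20.6%, 27.4%, 31.3% and 42.7% of the rest, so the gap was wide in the controls and small in the library labelled DCKO. The cells with Dcn were deeper, at medians of 6017, 7260, 6182 and 5332 UMIs against 5671, 6122, 5214 and 4786. The part of depth and of the Lum level in the gap was not tested. In chondrocyte-like cells Lum and Epyc met in single cells: 36.0%, 60.2%, 62.3% and 52.1% of cells with Lum had Epyc, against 9.24%, 19.0%, 22.1% and 21.0% of the rest, again with more UMIs in the first group.

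Among 4312 other genes that reached 50 CPM in at least 1 of the 20 values, up to 3 of the closest profiles are named for each member. Those of Aspn were Pcsk5 (0.96), Olfml3 (0.96) and Col1a2 (0.96), and those of Ogn were Olfml3 (0.96), Pcsk5 (0.95) and Col1a2 (0.95). Bgn was closest to Aebp1 (0.93), Tent5a (0.89) and Ppic (0.88), and Fmod to Cd47 (0.92), Sparc (0.90) and Ccn4 (0.87). Dcn was closest to Sh3kbp1 (0.94), Tmem158 (0.92) and Cited1 (0.91), and Kera to Thbs4 (0.92), itself a marker of the tendon list, Sh3kbp1 (0.91) and Chodl (0.91). The chondrocyte members had other partners, Epyc with Tbrg1 (0.96) and Rcn1 (0.94), and Prelp with 1810058I24Rik (0.93), Fzd9 (0.93) and Col9a3 (0.93). Lum was closest to Tspan18 (0.90), Pcolce (0.88) and Nid2 (0.86), and Omd did not reach 50 CPM.

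In the mouse genome 9 of the 10 genes lie in 3 clusters with 0 protein-coding genes between neighbours. On chromosome 10 of GRCm38, Dcn (chr10:97479609-97518143), Lum (chr10:97565128-97572703), Kera (chr10:97606879-97613692) and Epyc (chr10:97644068-97682454) lie on the plus strand within 203 kb. On chromosome 13, Aspn (chr13:49544443-49567565), Omd (chr13:49582462-49592822) and Ogn (chr13:49608046-49624501) lie on the plus strand within 80.1 kb. On chromosome 1, Prelp (chr1:133910304-133921414, minus strand) and Fmod (chr1:134037254-134048277, plus strand) are 116 kb apart, and Bgn (chrX:73483602-73495933) stands alone.

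**Figure D3:**
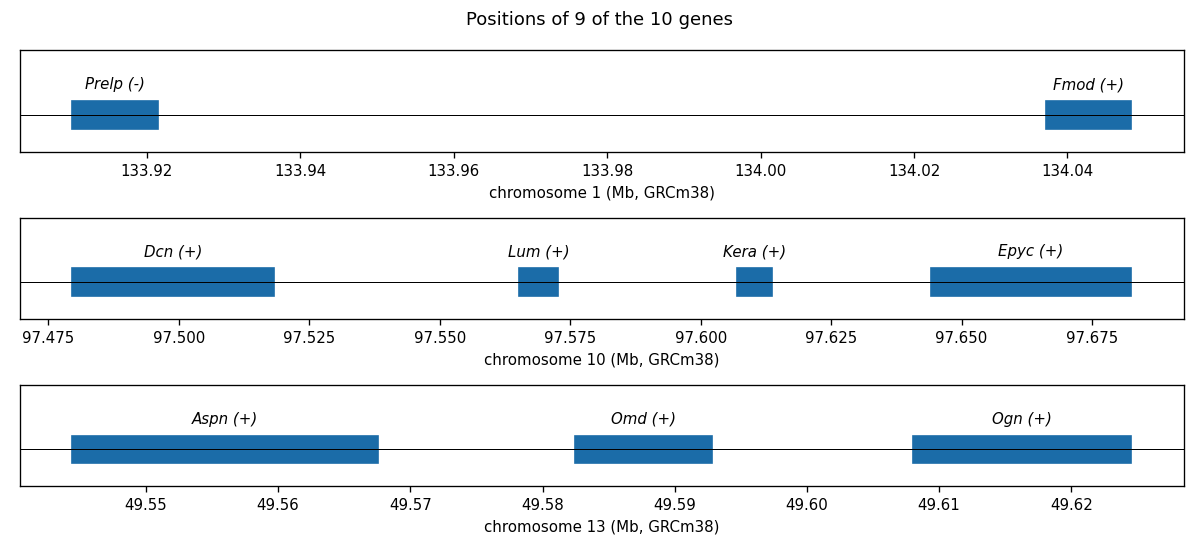
Positions of 9 of the 10 genes on chromosomes 1, 10 and 13 of GRCm38, with the strand in brackets; each panel has its own scale in megabases. The chromosome 10 cluster spans 203 kb and the chromosome 13 cluster 80.1 kb.

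Neighbours were not alike by position alone. On chromosome 10 the most abundant class was fibroblast-like or tendon-like for Dcn, tendon-like for Kera and chondrocyte-like for Epyc, and Lum was high in chondrocyte-like, fibroblast-like and osteogenic-like cells. On chromosome 13 the most abundant class was osteogenic-like for Omd in all 4 libraries and for Aspn in 3, and tendon-like for Ogn in 3. Dcn and Lum correlated at 0.19 over the 20 values, Kera and Epyc at -0.30, and Omd at 0.53 with Aspn and 0.46 with Ogn. Other pairs within these clusters were close, with 0.98 for Ogn and Aspn and 0.87 for Dcn and Kera.

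Since Aspn and Ogn move together, the 250 bases before the RefSeq start of each gene of that cluster are shown (GRCm38.p6, plus strand, 5′ to 3′), at chr13:49544193-49544442, chr13:49582212-49582461 and chr13:49607765-49608014. The Ogn stretch ends before the gene start given above. Of the 10 members 8 had an entry in that table, without Dcn and Lum. Capitals mark TATAAA and CANNTG (E-box) letters on either strand, motifs chosen for display after the expression values were known.
Aspn: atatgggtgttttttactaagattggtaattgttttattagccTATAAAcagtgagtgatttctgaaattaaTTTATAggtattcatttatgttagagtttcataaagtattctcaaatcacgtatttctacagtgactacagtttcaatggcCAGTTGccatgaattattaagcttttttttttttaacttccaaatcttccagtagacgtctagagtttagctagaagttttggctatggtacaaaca
Omd: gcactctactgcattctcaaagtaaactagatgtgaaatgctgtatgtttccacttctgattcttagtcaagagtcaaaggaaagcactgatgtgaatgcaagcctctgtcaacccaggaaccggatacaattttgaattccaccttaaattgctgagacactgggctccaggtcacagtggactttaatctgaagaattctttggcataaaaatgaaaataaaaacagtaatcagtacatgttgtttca
Ogn: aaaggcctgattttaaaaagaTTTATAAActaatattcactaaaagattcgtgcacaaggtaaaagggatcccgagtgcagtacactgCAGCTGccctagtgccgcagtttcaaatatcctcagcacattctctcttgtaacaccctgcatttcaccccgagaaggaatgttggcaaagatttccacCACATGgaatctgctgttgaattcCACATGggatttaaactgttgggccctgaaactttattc
The Aspn stretch holds 2 matches to TATAAA and 1 to CANNTG, the Ogn stretch 2, which overlap, and 3, and the Omd stretch 0 of either. Over 32851 promoters of the same length, 12.4% hold TATAAA and 66.2% hold CANNTG. A match is a description of letters and marks no site.

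Related genes were counted from 5 lists. Of 10 other SLRP and related leucine-rich genes, 4 could be called in fibroblast-like against chondrocyte-like cells of all libraries, and Chad and Chadl, cartilage leucine-rich proteins, were lower in all 4, beside 2.94% of all genes. Chad was at 74.8, 121, 101 and 86.3 CPM in chondrocyte-like cells and 1.504, 3.83, 3.81 and 5.42 CPM in fibroblast-like cells. Between ages 1 of 4 callable genes was higher in fibroblast-like cells (Chad, 1.35), 1 of 3 in osteogenic-like cells (Podnl1, 1.07) and 1 of 4 in chondrocyte-like cells (Ecm2, 2.39), beside 4.23%, 2.68% and 3.88% of all genes. Chad was lower in osteogenic-like (-1.33) and interzone-like (-1.09) cells, 1 of 3 callable genes in each, beside 11.3% and 3.57%. In neither genotype comparison was any of this list called.

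The fibrillar collagens are the partners that SLRPs bind. Of 11 genes, with age 7 of 10 callable were at least 2-fold higher in fibroblast-like, 6 of 9 in tendon-like, 5 of 10 in osteogenic-like, 4 of 9 in interzone-like and 4 of 10 in chondrocyte-like cells, beside 4.23%, 3.81%, 2.68%, 3.14% and 3.88% of all genes. Col1a1 went from 415 to 1493 CPM in fibroblast-like and from 656 to 4000 CPM in osteogenic-like cells. Only Col11a2, in osteogenic-like cells, was lower (-1.27), 1 of 10 callable genes there beside 11.3% of all genes. Between cell classes, Col1a1, Col1a2, Col3a1, Col5a1 and Col5a2 were higher in fibroblast-like cells of all 4 libraries, 5 of 10 callable genes beside 7.98% of all genes, and Col2a1, Col11a1, Col11a2 and Col27a1, 4 of 10, lower, beside 2.94%. Col3a1 is a marker of the fibroblast list and Col2a1 of the chondrocyte list, so both counts hold a marker. Where a listed gene is a marker of a class, its call between classes follows from how cells were placed. By genotype Col11a2 was higher in osteogenic-like cells of both libraries (1.55 and 1.68), 1 of 9 callable genes in each. Over all pairs of a gene and a class, 0.792% and 1.02% were higher. In the library labelled DCKO Col1a1 in interzone-like (-1.01) and Col24a1 in chondrocyte-like cells (-1.21) were lower. These were 1 of 9 and 1 of 10 callable genes, beside 2.54% of all pairs.

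Enzymes that build the sugar chains form the next list. Of 22 genes of chondroitin and dermatan sulfate synthesis 20 could be called in all 4 libraries, and of these 6 were at least 2-fold lower in fibroblast-like than in chondrocyte-like cells in all 4 libraries (Xylt1, Fam20b, Csgalnact1, Chpf2, Chst11 and Chst12), beside 2.94% of all genes, and 0 higher, beside 7.98%. Chst11, a chondroitin 4-sulfotransferase, was at 80.3, 86.9, 88.7 and 83.7 CPM in chondrocyte-like and 5.85, 5.74, 5.76 and 6.57 CPM in fibroblast-like cells. With age 1 of 20 callable genes was higher in fibroblast-like cells (Xylt1, 1.02), 4 of 13 in tendon-like cells, led by Xylt1 (1.72) and Chpf2 (1.58), and 1 of 19 in interzone-like cells (Chsy3, 1.39), beside the same 4.23%, 3.81% and 3.14% of all genes. Csgalnact1 in osteogenic-like (-2.61) and Chst15 in chondrocyte-like cells (-1.37) were lower. These were 1 of 19 and 1 of 20 callable genes, beside 11.3% and 3.81% of all genes. By genotype Chsy3 alone was called, in interzone-like cells, going from 15.2 CPM to 4.89 and 3.63 CPM. It was 1 of 18 and 1 of 15 callable genes in that class, beside 0.982% and 2.54% of all pairs of a gene and a class.

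Of 9 genes of keratan sulfate synthesis and tyrosine sulfation, 0 were apart between fibroblast-like and chondrocyte-like cells in the same direction in all 4 libraries, beside 7.98% of all genes higher and 2.94% lower. Chst5, a sulfotransferase of keratan sulfate chains, was called higher with age in 3 classes, while chondrocyte-like control cells had 3.86 CPM at E13.5 and 2.42 CPM at E14.5. In fibroblast-like, tendon-like and interzone-like cells it was 1 of 8, 6 and 7 callable genes, beside 4.23%, 3.81% and 3.14% of all genes. It was at 21.1 CPM at E13.5 and 60.2 CPM at E14.5 in interzone-like control cells and at 21.8 CPM in the library labelled DCKO, with log2 ratios of 1.51 (95% interval 1.24 to 1.78) and -1.46 (-2.14 to -0.85). In tendon-like cells it went from 8.78 to 41.8 CPM with age and to 20.6 CPM in the library labelled DCKO, and in fibroblast-like cells from 1.67 to 9.45 CPM and then to 4.30 and 3.23 CPM in the libraries labelled Glut3f/+ and DCKO. Other calls were Chst1 in chondrocyte-like cells with age (-1.08), B4galt4 in interzone-like cells of the library labelled Glut3f/+ (-1.05) and Chst2 in fibroblast-like cells of the library labelled DCKO (-1.07). Chst1 was 1 of 9 callable genes, beside 3.81% of all genes. The library labelled Glut3f/+ had 1 of 8 lower in fibroblast-like and 1 of 6 in interzone-like cells, beside 0.982% of all pairs. The library labelled DCKO had 2 of 8 in fibroblast-like, 1 of 4 in tendon-like and 1 of 5 in interzone-like cells, beside 2.54%.

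Of 10 proteases and helpers that cleave SLRPs or their partners 7 could be called in all 4 libraries, and 3 of them, Tll1, Adamts5 and Htra1, were higher in fibroblast-like than in chondrocyte-like cells of all 4, beside 7.98% of all genes. Htra1, a secreted serine protease, rose with age from 22.4 to 148 CPM in fibroblast-like, from 100 to 567 CPM in tendon-like, from 11.0 to 58.3 CPM in osteogenic-like and from 179 to 669 CPM in interzone-like cells. In the library labelled DCKO it was at 65.3 CPM in fibroblast-like and 263 CPM in interzone-like cells. Adamts5 rose with age in fibroblast-like (1.57) and interzone-like cells (2.06). It was lower in interzone-like cells of the library labelled Glut3f/+ (-1.34) and higher in tendon-like cells of the library labelled DCKO (1.31), and Mmp2 was lower in interzone-like cells of that library (-1.35). The library labelled Glut3f/+ had 1 of 6 callable genes lower in interzone-like cells, beside 0.982% of all pairs. In the library labelled DCKO 1 of 8 was lower in fibroblast-like and 2 of 6 in interzone-like cells, beside 2.54%. There 1 of 6 was higher in tendon-like cells, beside 1.02%. Mmp14 in tendon-like (1.15), Pcolce in osteogenic-like (1.62) and Tll1 in chondrocyte-like cells (1.61) also rose with age. In all, 4 of 8 callable genes were higher with age in fibroblast-like, 2 of 5 in tendon-like and 2 of 5 in osteogenic-like cells. In interzone-like and chondrocyte-like cells 2 of 6 and 1 of 6 were higher. The shares of all genes in the same order were 4.23%, 3.81%, 2.68%, 3.14% and 3.88%.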

How the data were processed

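The deposited values are UMI counts of each gene in each barcode. Per the file headers the authors made them with Cell Ranger 6.1.2, and the submitters' processing notes add Seurat 3 and the build mm10. Every count was used as deposited, after testing that all values are whole numbers.

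The cell filter asked for 200 to 6000 detected genes, with mitochondrial UMIs no higher than 10%, and left a median of 6176 to 7279 UMIs. Each cell was scored for 5 skeletal classes from 4 to 6 markers, scaled to the 99th percentile, and placed in the class with the highest score if that was at least 0.35 and led by 0.15. Cells with at least 3 markers of 1 of 7 other lists were set aside. No doublet caller was run.

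Each class was pooled within its library, and its UMI sums are given as CPM with exact Poisson 95% intervals, ratios with exact conditional 95% intervals and shares with Clopper-Pearson limits. Calls need a ratio of at least 2 and at least 50 UMIs over both groups. With 1 library per condition no test was made, and no length correction is needed for 3′ counts. The rule for calls was also run on simulated data, and no value given here rests on that run.

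Alternatives changed the gate, cell filter, scaling (TMM of edgeR 4.0.16 in R 4.3.3), averaging, depth and UMI minimum. Other steps used Python 3.11.15, numpy 2.4.6, scipy 1.17.1, pandas 2.3.3 and matplotlib 3.10.9.

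The members and lists were chosen with earlier results of these data known. All 10 members are named. From each related list up to 2 rises and 2 falls are named per comparison, and for each member up to 3 of the genes with the highest correlation. Other related genes named beside a count were chosen after their values were seen. So was the use of erythroid-like and macrophage-like cells alone as the background for shares, since endothelial-like and muscle-like cells carried Bgn and Ogn above that level.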

Additional observations from a re-analysis of the deposited data

Results flagged for a closer look

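Within 5 pairs of classes a gene moved in opposite directions under the same comparison, by at least 1.5-fold on each side. With 1 library on each side, the difference between the classes was not tested.

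Between the ages, Lum had a log2 ratio of 1.538 in osteogenic-like cells and -1.305 in interzone-like cells, and Kera 1.511 in tendon-like cells and -1.385 in fibroblast-like cells. In the library labelled Glut3f/+ against the E14.5 control, Prelp had 1.07 in interzone-like cells and -0.6383 in fibroblast-like cells. In the library labelled DCKO against the same control, Dcn had 0.722 in tendon-like cells and -0.9374 in fibroblast-like cells, and Ogn 1.471 in interzone-like cells and -0.697 in osteogenic-like cells.

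In 2 of these pairs the interzone-like value did not stand above background: at 2000 UMIs, Lum at E13.5 and Prelp in the library labelled Glut3f/+ were detected in a smaller share of interzone-like than of erythroid-like cells. Prelp in fibroblast-like cells was not above background in any library.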

How the results depend on the processing

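No paired analysis was possible because each condition has 1 library. The 11 alternatives were a stricter gate, a looser gate, a gate on defining genes, the most abundant marker of each list left out, cells with a high second score left out, a stricter cell filter, TMM factors, a total without the 20 most abundant genes, the mean of single-cell CPM, cells thinned to 2000 UMIs, and no minimum of UMIs. The cause of the changes below was not tested.

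The count of genes lower in fibroblast-like than in chondrocyte-like cells was 2 under all 11, and the 4 higher genes became 3 under 6 alternatives by the loss of Kera. The 21 pairs higher at E14.5 ranged from 16 to 24. The 16, with high second scores left out, held 13 of the original 21, and the 20 with the gate on defining genes held 16.

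Pairs lower at E14.5 went from 3 to 1 with the stricter gate, the gate on defining genes, high second scores left out or thinned cells, to 2 without the most abundant markers or with mean single-cell CPM, to 4 with the looser gate and to 6 with no minimum. The 1 pair with the gate on defining genes was a new one, Dcn in osteogenic-like cells. Without the most abundant markers, 1 of the 2 was an original pair and Prelp in osteogenic-like cells was new. For the library labelled Glut3f/+, pairs higher went from 2 to 1 with the stricter gate, mean single-cell CPM or high second scores left out (Lum in osteogenic-like cells, a new pair), to 3 with the looser gate, the gate on defining genes (neither keeping an original pair) or TMM factors, to 0 without the most abundant markers or with thinned cells, and to 7 with no minimum. Its pairs lower went from 0 to 2 with high second scores left out and to 1 with mean single-cell CPM or no minimum.

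For the library labelled DCKO, pairs higher went from 2 to 0 with the stricter gate, 5 with the looser gate, 4 with the gate on defining genes or without the most abundant markers, 3 with TMM factors or mean single-cell CPM, 1 with thinned cells (Dcn in tendon-like cells, a new pair) and 9 with no minimum. High second scores left out gave 2 new pairs in place of the original 2. Its pairs lower went from 1 to 2 with the stricter gate, the gate on defining genes, the stricter cell filter or thinned cells. They were 4 with the looser gate or without the most abundant markers, 3 with high second scores left out and 6 with no minimum. Fmod in chondrocyte-like cells remained among them under all 11.

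Among ratios that were at least 2-fold, 6 values changed sign; ratios nearer to 0 were not counted. Between ages the log2 ratio of Epyc in fibroblast-like cells was -0.3468 with thinned cells, that of Dcn in interzone-like cells 0.4794 without the most abundant markers, and that of Lum in interzone-like cells 0.9099 with the gate on defining genes and 0.01072 with high second scores left out. For Fmod in fibroblast-like over chondrocyte-like cells, the gate on defining genes gave -0.2842 in the E14.5 control and -0.07213 in the library labelled Glut3f/+.

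TMM moved log2 ratios by over 0.1 between ages in osteogenic-like (0.20) and chondrocyte-like cells (0.13), in tendon-like (0.12) and chondrocyte-like cells (0.17) of the library labelled DCKO, and between fibroblast-like and chondrocyte-like cells (-0.18, -0.25, -0.29 and -0.38).

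Small counts limit Omd, Kera outside tendon-like cells and the classes with 107 to 232 cells. Class limits are scores, the libraries differ in sex, exact embryo numbers are not stated, and the background RNA was not subtracted.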
